A study of Mus musculus with 6 samples.

Results

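A set of 10 genes of ceramide synthesis and of the first step beyond it was examined in uteri of 2-week-old female mice of genotype Arid1a f/f (3 arrays) or Arid1a d/d (3 arrays). The set holds the ceramide synthases Cers2, Cers3, Cers4, Cers5 and Cers6, the serine palmitoyltransferase subunits Sptlc1 and Sptlc2, the dihydroceramide desaturases Degs1 and Degs2, and the glucosylceramide synthase Ugcg. A probe set counted for a gene when the platform annotation named that gene and no other. This gave 19 probe sets for 9 of the 10 genes, of 16813 genes and 41420 probe sets in all, and Cers4 had none and was not analysed here. The enzymes were chosen by name with the genotype difference of these same 6 arrays already known, Cers3 for its large value, so their differences are given below as a description and carry no test of their own.

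In gene notation f marks an allele flanked by loxP sites and d the allele after the flanked part has been removed. The labels name neither the recombinase nor the cells in which it acted, and give the mice as intact. Arid1a belongs to the SWI/SNF complex, which moves nucleosomes. Its 1 probe set stood at 7.54, 7.58 and 7.71 in f/f arrays against 6.98, 7.06 and 7.04 in d/d arrays (log2 values), a difference of -0.58. The d/d arrays all lay below the f/f arrays, and whether the probe set covers the deleted part is not stated. Genes of uterine stroma and muscle were present in all 6 arrays, with Hoxa10 between 9.02 and 9.45 and Mylk between 10.62 and 11.18. Whether each array stands for its own animal is not stated in the labels, so p-values reflect spread among these samples alone, and that spread may be technical. Array d/d 1 correlated with f/f 1 at 0.9946 over all probe sets and with d/d 2 and d/d 3 at 0.9901 and 0.9905. Calls of enzymes and other pathway genes that change without d/d 1 are therefore given both ways. Cell type markers, chromosomal neighbours and the genes nearest Cers3 in profile were read with all 6 arrays only.

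Sphingolipids are membrane lipids built on a long-chain base. Serine palmitoyltransferase makes the first intermediate from serine and palmitoyl-CoA, a reductase turns it into sphinganine, a ceramide synthase attaches a fatty acid, and a desaturase inserts the double bond that makes ceramide. Each ceramide synthase prefers fatty acids of certain lengths: Cers5 and Cers6 favour palmitoyl chains, Cers2 very long chains, and Cers3 very long and ultra-long chains, for which it is best known in the epidermis and the testis. Ceramide then becomes sphingomyelin, glucosylceramide or, after its breakdown, sphingosine and sphingosine 1-phosphate, a signalling lipid.

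RefSeq promoter windows were found for all 10 genes, 11 windows of 300 bases, each reaching from 250 bases before to 50 after a transcript start. The windows of Cers3 and Degs2 are shown because these genes had the largest difference in each direction, and the capitals mark CG dinucleotides, in which cytosine can be methylated. Both are from build GRCm38.p6, written 5′ to 3′ on the strand of the gene, Cers3 at chr7:66743254-66743553 on the plus strand and Degs2 at chr12:108702257-108702556 on the minus strand.
Cers3: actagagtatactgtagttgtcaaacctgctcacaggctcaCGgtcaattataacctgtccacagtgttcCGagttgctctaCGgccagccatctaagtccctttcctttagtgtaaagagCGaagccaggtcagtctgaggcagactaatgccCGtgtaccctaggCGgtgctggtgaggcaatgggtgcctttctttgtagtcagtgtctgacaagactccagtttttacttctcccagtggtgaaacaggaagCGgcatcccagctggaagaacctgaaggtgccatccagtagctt
Degs2: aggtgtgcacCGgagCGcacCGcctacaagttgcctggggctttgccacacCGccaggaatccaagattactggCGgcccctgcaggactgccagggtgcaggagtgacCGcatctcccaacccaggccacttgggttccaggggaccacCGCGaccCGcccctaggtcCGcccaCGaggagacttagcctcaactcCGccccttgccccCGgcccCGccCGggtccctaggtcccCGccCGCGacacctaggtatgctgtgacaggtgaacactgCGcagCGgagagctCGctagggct
The Cers3 window holds 7 CG dinucleotides, the median over all 32851 RefSeq windows of this length, and the Degs2 window holds 21. The other windows ranged from 6 for the second Cers2 start to 53 for Ugcg. A GC box, searched as GGGCGG on both strands, was in 7 of the 11 windows, among them that of Degs2 and not that of Cers3, and in 35.658% of all windows. A CCAAT box, searched as CCAAT on both strands, was in 4 of the 11 and in 37.408% of all, and in neither of the printed windows. A TATA box, searched as TATAAA on both strands, was in 0 of the 11 and in 13.616% of all. The RefSeq extent of Cers3 begins upstream of the printed window, so the gene has a further annotated start. The arrays measure transcripts and give no reading of these windows.

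Cers3 stood 4.33-fold higher in d/d uteri, and the other 8 measured enzymes did not pass the threshold. Of the 19 probe sets, 1 was called higher and 0 lower by limma at an adjusted p under 0.05 across all probe sets, beside 0.314% called higher and 0.21% called lower among all 41420. Without the adjustment 4 of the 19 had a p under 0.05, beside 4079 of all 41420 probe sets. The groups did not overlap for 4 of the 19, 2 with d/d above f/f and 2 with d/d below, beside 14.1% of all probe sets. The median log2 difference, d/d minus f/f, was -0.022 over the 19 and -0.0041 over all probe sets. Because the set was chosen with this comparison known, nothing is read from these counts.

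Among the ceramide synthases, Cers3 measured 4.02, 3.69 and 3.75 in f/f 1, 2 and 3 against 6.12, 6.16 and 5.52 in d/d 1, 2 and 3, as log2 values of its only probe set, 1444740_at. Values of other genes are given in the same array order. The d/d arrays all lay above the f/f arrays with a wide gap between them, and d/d 3 was the lowest of the d/d arrays. The means were 3.82 ± 0.17 and 5.93 ± 0.36 (SD, n = 3), a log2 difference of 2.11 ± 0.18 (SE) with a 95% interval from 1.71 to 2.52. All 6 values lay above 2.69, the median of all log2 values, which serves here as a mark below which background limits a reading. The annotation lists an expressed sequence tag as the source of this probe set, and Cers3 has no further probe set to set beside it. Without d/d 1 the difference was 2.02, and with any other 1 array left out it lay between 2.00 and 2.32.

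**Figure D1:**
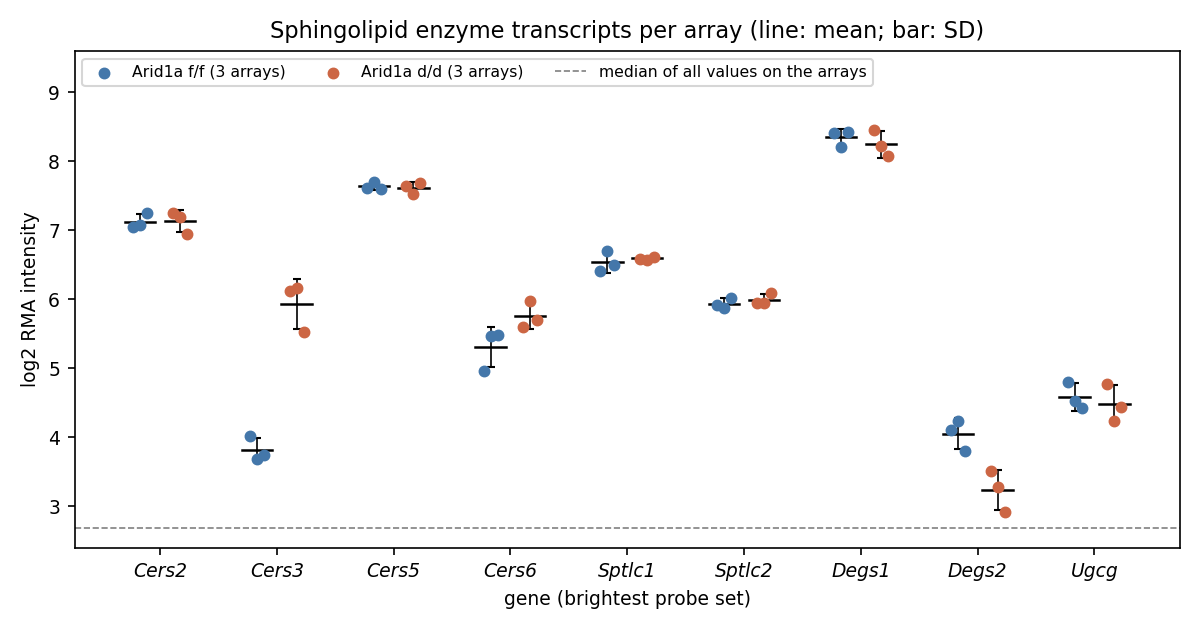
Log2 RMA intensity of the 9 measured enzymes by each gene's brightest probe set, with 1 point per array, the mean as a line and the SD as a bar; levels of different genes are not comparable, since probe sets bind with different strength. The Cers3 points fall into 2 separate groups, 3.69 to 4.02 in f/f and 5.52 to 6.16 in d/d, while those of Cers2, Cers5, Sptlc1, Sptlc2, Degs1 and Ugcg intermingle.

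The other ceramide synthases did not pass the threshold. Cers2, the main synthase for very long chains in most tissues, measured 7.04, 7.08 and 7.24 in f/f arrays against 7.26, 7.19 and 6.95 in d/d arrays. Its genotypes overlapped, with a log2 difference of 0.011 ± 0.11 (SE) and a 95% interval from -0.24 to 0.26. With 1 array left out the Cers2 difference ran from -0.050 to 0.10, so it has no settled sign. Cers5, a synthase for palmitoyl chains, measured 7.62, 7.70 and 7.60 in f/f arrays against 7.64, 7.52 and 7.69 in d/d arrays, with a difference of -0.022 ± 0.088 (SE) and an interval from -0.22 to 0.18. These intervals hold no change in Cers2 or Cers5 as large as that of Cers3. The dimmer Cers5 probe set, 1447308_at, lay around the array median, with values from 2.26 to 2.94, and differed by 0.035. Cers6, which shares the palmitoyl preference of Cers5, measured 4.97, 5.47 and 5.48 in f/f arrays against 5.60, 5.97 and 5.70 in d/d arrays. The d/d values all lay above the f/f values, by a narrow margin between f/f 3 and d/d 1. Its log2 difference was 0.45 ± 0.16 (SE), with an interval from 0.083 to 0.82, it did not pass the threshold, and without f/f 1, the lowest array, it was 0.28.

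The serine palmitoyltransferase subunits, which carry the committed step of the pathway, did not pass the threshold in any probe set. Sptlc1 measured 6.40, 6.70 and 6.50 in f/f arrays against 6.59, 6.57 and 6.61 in d/d arrays by its brightest probe set, so the d/d values lay inside the f/f range. The log2 difference was 0.057 ± 0.099 (SE), with an interval from -0.17 to 0.28. The other 3 Sptlc1 probe sets had differences from -0.051 to 0.12, and the one at -0.051 lay below 2.69 in all arrays. Sptlc2, the catalytic partner, measured 5.92, 5.87 and 6.02 in f/f arrays against 5.94, 5.95 and 6.09 in d/d arrays. The log2 difference was 0.060 ± 0.090 (SE), with an interval from -0.15 to 0.27, and its other 2 probe sets stood at -0.049 and 0.056. All 7 probe sets of both subunits had overlapping genotypes.

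Neither desaturase passed the threshold in the fit of all 6 arrays without a replicate block, and the groups of Degs2 did not overlap. Degs2, which can hydroxylate dihydroceramide to phytoceramide as well as desaturate it, measured 4.11, 4.24 and 3.80 in f/f arrays against 3.51, 3.28 and 2.93 in d/d arrays. All d/d values lay below all f/f values, with d/d 3 near the 2.69 mark, where background limits the fold. The log2 difference was -0.82 ± 0.17 (SE), a 1.76-fold lower level, with an interval from -1.20 to -0.43. It did not pass the threshold in that fit and passed without d/d 1, at -0.95. Degs1, the general desaturase, gave different readings by its 2 probe sets. The brighter one, 1423346_at, measured 8.40, 8.21 and 8.43 in f/f arrays against 8.45, 8.22 and 8.07 in d/d arrays, a difference of -0.098 ± 0.12 (SE) that was -0.20 without d/d 1. The other, 1423345_at, measured 7.54, 7.46 and 7.59 in f/f arrays against 7.30, 7.01 and 7.16 in d/d arrays, with no overlap and a difference of -0.37 ± 0.10 (SE). Both lay far above the array median, neither passed the threshold, and which of them follows the transcript better was not tested.

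Ugcg, which adds glucose to ceramide and so opens the way to most glycosphingolipids, overlapped between genotypes in all 4 probe sets. The brightest measured 4.81, 4.53 and 4.42 in f/f arrays against 4.77, 4.24 and 4.45 in d/d arrays, a difference of -0.100 ± 0.16 (SE). The second, 1435133_at, measured 4.59, 4.37 and 4.75 in f/f arrays against 4.57, 4.35 and 4.16 in d/d arrays, a difference of -0.21 ± 0.14 (SE). The other 2 lay below 2.69 in all arrays and differed by -0.18 and -0.096. None passed the threshold, and the brightest had no settled sign: leaving out f/f 1 gave 0.012, leaving out d/d 2 gave 0.024 and leaving out d/d 1 gave -0.24.

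**Figure D2:**
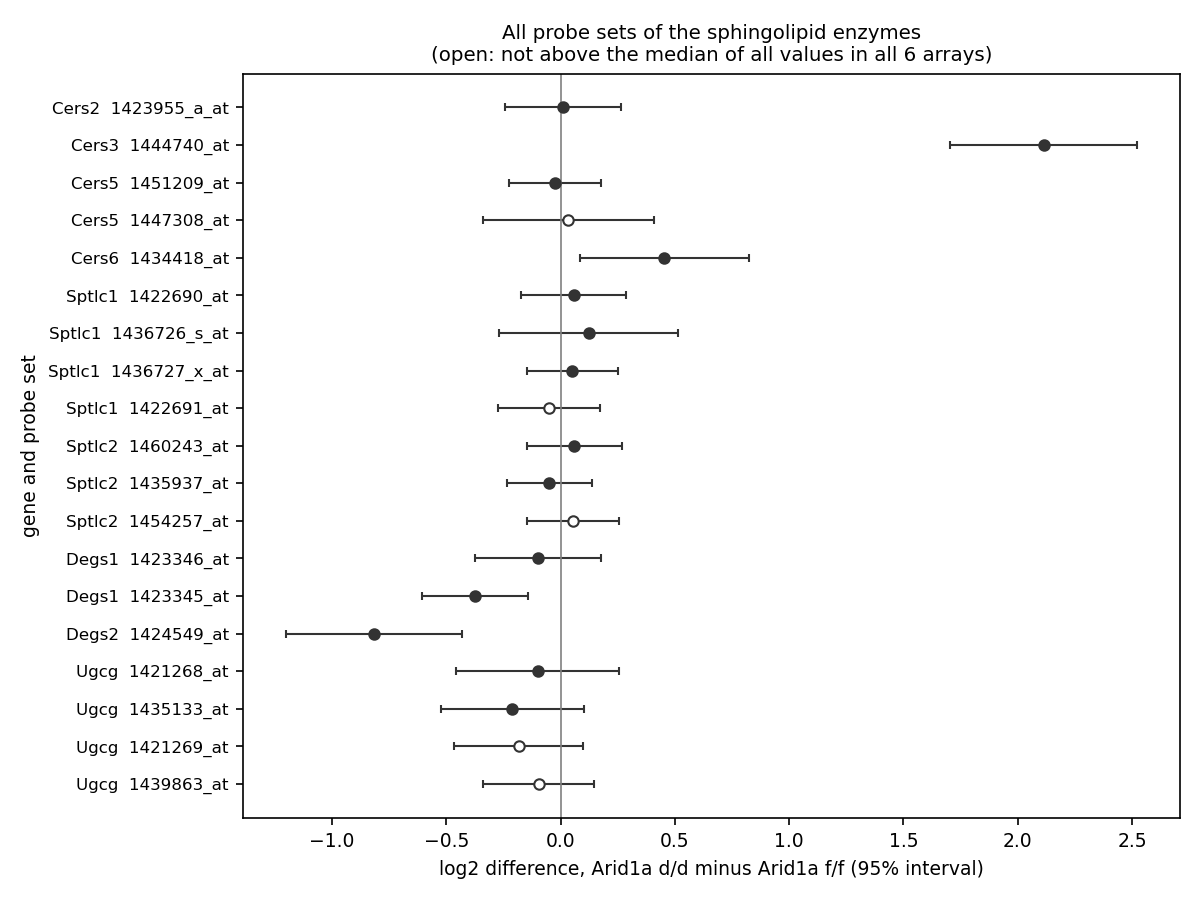
Log2 difference, d/d minus f/f, with its 95% interval from limma for all 19 probe sets, open points marking those not above the median of all values in every array. The Cers3 interval, 1.71 to 2.52, lies apart from all others, and Degs2 is lowest, at -0.82.

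The rest of the pathway was taken from lists drawn up by role from textbook biochemistry, though with earlier results of these data known. Each gene was read by its brightest probe set, with p-values adjusted over all 16813 genes. Of 88 listed genes 69 were measured, of which 0 rose, 1 fell and 68 did not pass, beside 0.63% higher and 0.512% lower among all genes. The groups did not overlap for 5 genes with d/d above f/f and 14 with d/d below, beside 7.1% of all genes above, 9.42% below and 16.5% in either direction. The median difference was -0.036 over the 69 and -0.011 over all genes. Without d/d 1 the count past the threshold was 8, with 3 higher and 5 lower. It was 0 without each of the other arrays in turn. Over all probe sets the count was 217 with every array kept and 971 without d/d 1 (410 higher, 561 lower). Without each of the other arrays in turn it lay between 37 and 105, so these changes were not particular to the pathway genes.

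The gene that fell was B3gnt5, whose enzyme adds N-acetylglucosamine to lactosylceramide and starts the lacto-series glycosphingolipids. It measured 4.71, 4.61 and 4.31 in f/f arrays against 3.46, 2.84 and 3.12 in d/d arrays. The d/d arrays were all lower, and d/d 2 approached the 2.69 mark. The fall was 2.65-fold, a log2 difference of -1.41 ± 0.17 (SE; limma adjusted p = 0.0155), lower in 3 of 3 d/d arrays. The call was lost when any single array other than d/d 1 was left out, with limma adjusted p from 0.0517 to 0.0924 and differences from -1.53 to -1.26. Its other probe set lay below 2.69 in all arrays and differed by -0.23, so that the mean of both gave -0.82.

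Further along the glycosphingolipid branch, 17 of 24 listed genes were measured, with 0 higher, 1 lower, a median difference of -0.14 and 7 genes whose d/d values all lay below f/f, beside 9.42% of all genes. A4galt, the globotriaosylceramide synthase, measured 5.86, 5.95 and 5.84 in f/f arrays against 5.54, 5.08 and 4.97 in d/d arrays. Its difference of -0.69 ± 0.15 (SE; limma adjusted p = 0.0914) did not pass, though d/d 2 and d/d 3 were well below every f/f array, and without d/d 1 it passed at -0.86 (limma adjusted p = 0.00445). B4galt6, a lactosylceramide synthase, differed by -0.53 ± 0.11 (SE; limma adjusted p = 0.0870) and passed without d/d 1, at -0.58 (limma adjusted p = 0.0412). Its other 3 probe sets gave -0.25, -0.22 and -0.021, the last from a probe set near the array median. Psap, the precursor of the lysosomal saposins, stood at -0.26, Gm2a, the GM2 activator, at -0.28 and Arsa, which removes sulfate from sulfatide, at -0.22, none past the threshold.

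In the sphingomyelin branch 8 of 11 listed genes were measured and 0 passed, with a median difference of -0.093. Sgms2, a sphingomyelin synthase of the plasma membrane, measured 8.01, 8.08 and 7.69 in f/f arrays against 7.62, 6.47 and 6.12 in d/d arrays. Array d/d 1 lay beside the f/f arrays and the other 2 d/d arrays far below, so the difference of -1.19 ± 0.35 (SE) did not pass (limma adjusted p = 0.197). Without d/d 1 it was -1.63 and passed (limma adjusted p = 0.00248). Its second probe set measured 3.90, 4.48 and 3.75 in f/f arrays against 3.37, 3.09 and 2.80 in d/d arrays, a difference of -0.96 that also did not pass. Samd8, a relative of the synthases, stood at -0.37, Cert1, the carrier of ceramide from the endoplasmic reticulum to the Golgi, at -0.41 and Smpd4, a sphingomyelinase, at 0.19, none past the threshold. As means over all probe sets of the gene these values were -0.11 for Samd8, -0.22 for Cert1 and -0.048 for Smpd4, whose sign thus turned.

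Among 22 listed genes of ceramide breakdown and sphingosine 1-phosphate, 19 were measured and 0 passed, with a median difference of -0.043. Sgpp2, a sphingosine 1-phosphate phosphatase, measured 2.45, 2.84 and 3.24 in f/f arrays against 3.64, 4.26 and 4.45 in d/d arrays. Every d/d array lay above every f/f array, with f/f 1 below 2.69, and the difference of 1.27 ± 0.25 (SE; limma adjusted p = 0.0706) did not pass. It passed without d/d 1, at 1.51 (limma adjusted p = 0.00709). S1pr3, a receptor for the same lipid, measured 8.08, 7.67 and 8.02 in f/f arrays against 8.68, 8.36 and 8.39 in d/d arrays. Its difference was 0.55 ± 0.14 (SE; limma adjusted p = 0.141), a dimmer probe set gave 0.54, and the dimmest, below 2.69 in all arrays, 0.090. Plpp2, a lipid phosphate phosphatase, stood at 0.35, S1pr4, a receptor of blood cells, at -0.27 and Spns2, the exporter, at -0.43, none past the threshold. Plpp2 and Spns2 passed without d/d 1.

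Around the first steps, 4 of 8 listed genes were measured and 0 passed, with all 4 differences above 0 and a median of 0.19. Sptlc3, an alternative transferase subunit, stood at 0.23, Ormdl1, a member of the family that restrains the transferase, at 0.41, Kdsr, the reductase, at 0.16 and Sptssa, a small activating subunit, at 0.064. Ormdl1 passed without d/d 1, at 0.67 (limma adjusted p = 0.0249). Of 13 listed genes that elongate or hydroxylate the fatty acids used by the ceramide synthases, 12 were measured and 0 passed, with a median of -0.037. Hacd3, a dehydratase of the elongation cycle, was the most different, at -0.41 ± 0.11 (SE; limma adjusted p = 0.161). Tecr, the reductase of that cycle, stood at -0.20, Hsd17b12, its ketoreductase, at 0.14 and Elovl7, an elongase, at -0.16. A dimmer Hsd17b12 probe set gave 0.26, with every d/d array above every f/f array. The brightest Elovl7 probe set lay near the 2.69 mark, with d/d 2 at 2.66, and its other probe sets gave from -0.40 to 0.031. Elovl4, the elongase of ultra-long chains, lay below 2.69 in all arrays by its brightest probe set and in all but f/f 1 by the other.

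**Figure D3:**
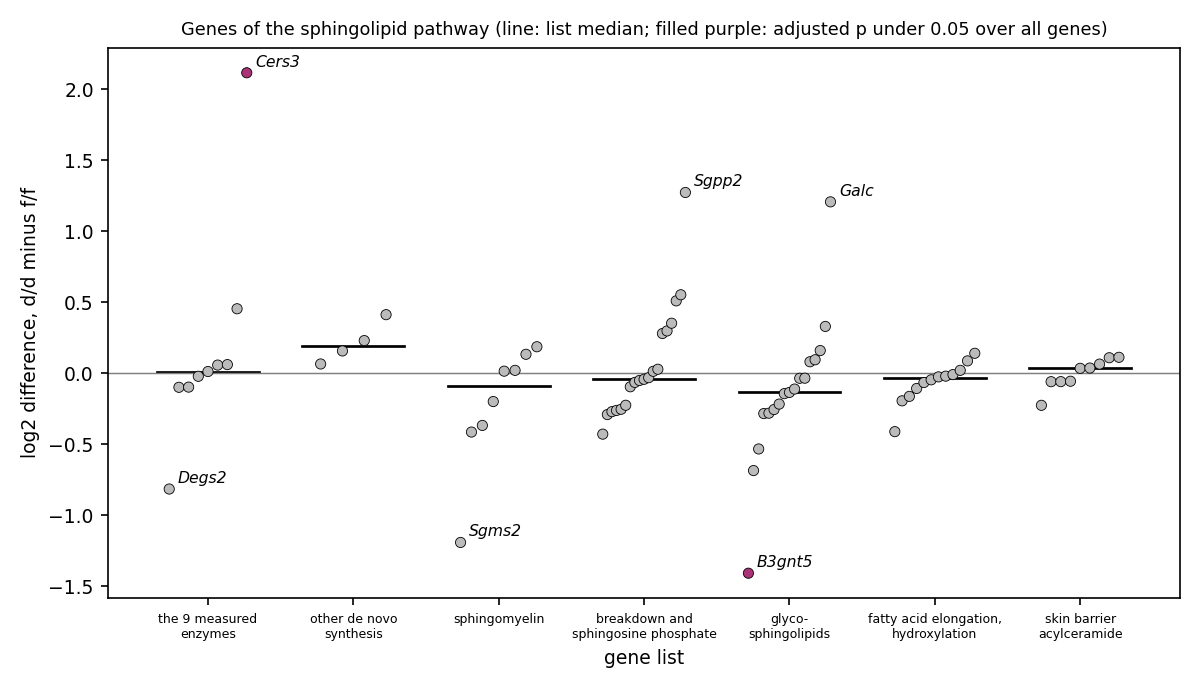
Log2 difference, d/d minus f/f, for the 9 measured enzymes and the 69 other pathway genes by list, with the list median as a line and genes past an adjusted p of 0.05 over all genes in purple. Cers3 at 2.11 and B3gnt5 at -1.41 are the only purple points, and most genes lie near 0.

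Cers3 is best known for making the acylceramides of the skin barrier, so the other genes of that route and the markers of stratified epithelium were set beside it. Of 10 listed acylceramide genes 9 were measured and 0 passed, with differences from -0.23 to 0.11 and a median of 0.034. Pnpla1, which makes acylceramide from its precursor, lay below 2.69 in all arrays and stood at -0.23. Aloxe3, a lipoxygenase of the barrier, stood at 0.11, Nipal4 at 0.11 and Slc27a4, a fatty acid transporter, at -0.060. Abca12, Cyp4f39, Abhd5, Lipn and Sdr9c7 lay below 2.69 in all arrays. Of 13 measured markers of stratified squamous epithelium 0 passed, and 8 lay below 2.69 in all arrays by their brightest probe sets, Trp63, Krt14, Krt1, Ivl and Flg among them. Differences were above 0 for 4 of the 13 and below 0 for 9. The keratin Krt10, above the mark, had every d/d array above every f/f array, with a difference of 0.18 that did not pass. Krt13, below the mark, had every d/d array below every f/f array, at -0.12. Krt5 and Lor lay above the mark in all 6 arrays and overlapped between genotypes, at -0.040 and -0.12. Krt15, a keratin of basal cells, measured 3.75, 5.83 and 5.72 in f/f arrays against 2.65, 5.63 and 5.67 in d/d arrays. Array 1 was thus the lowest of each genotype, as it was for Krt5. The summed intensity of the 13 ranged from 124 to 182 in f/f and from 118 to 177 in d/d, so the sums overlapped between genotypes.

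Markers of other cell types were read in the same way. Of 8 measured markers of simple epithelium 2 rose, Muc1, a surface mucin, by 1.03 and Cdh1, the epithelial cadherin, by 1.00 on the log2 scale. None lay below 2.69 in all arrays. Krt8, Krt18 and Cldn7 had every d/d array above every f/f array and did not pass. Epcam, at 0.14, and Krt7, at 0.21, overlapped between genotypes, as did Cldn3, which went the other way at -0.18. The summed intensity of the 8 ranged from 2566 to 3190 in f/f and from 3924 to 4147 in d/d. The sum over 8 markers of glandular epithelium ranged from 83.3 to 133 in f/f and from 45.8 to 48.3 in d/d. Of the 8, 2 were lower, Foxa2 at -1.41 and Cxcl15 at -3.71, and 4 lay below 2.69 throughout. Prss28 stood at -0.27, while Ttr, Lif, Slc18a2 and Wfdc3 overlapped between genotypes, from -0.14 to -0.029. Prss29 overlapped too and went the other way, at 0.082. The sum over 6 fat cell markers ranged from 591 to 924 in f/f and from 196 to 482 in d/d, over 5 endothelial markers from 725 to 777 and from 421 to 581, with 0 of the 6 and 0 of the 5 called. Over 10 stromal markers it ranged from 14926 to 15883 in f/f and from 11977 to 14286 in d/d, with 1 lower, Thy1. Over 7 smooth muscle markers it ranged from 5780 to 6677 in f/f and from 4706 to 6280 in d/d, and over 8 leukocyte markers from 427 to 433 and from 389 to 426, with 0 of the 7 and 0 of the 8 called. Linear sums weigh the brightest genes most, Col3a1 and Dcn in the stroma, and Thy1 little. Differences were below 0 for all 6 fat, 5 endothelial, 10 stromal and 7 smooth muscle markers, and for 4 of the 8 leukocyte markers. Every d/d array lay below every f/f array for 6 fat, 3 endothelial, 4 stromal and 2 smooth muscle markers, beside 9.42% of all genes. In whole uteri fewer cells of a type and less RNA per cell cannot be told apart, and the part of these values in the differences of Cers3, Degs2 and B3gnt5 was not tested.

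The 8 genes whose profile over the 6 arrays lay nearest to that of Cers3 were found by the root mean square difference of log2 values, each gene centred on its own mean, among 11140 genes whose mean in the higher group exceeded 2.69. They were Mpzl2, Prr15, Upk3bl, Ptprr, Dzank1, Cyp4x1, Bcl11a and Crybg1, with root mean square differences from 0.252 for Mpzl2, a cell adhesion protein, to 0.412 for Crybg1. Cyp4x1 and Crybg1 had f/f means of 2.33 and 2.55, so they entered through their d/d means alone and background limits their differences. Since the measure seeks the step between genotypes that Cers3 shows, the rise of all 8 is what the search looked for. Predicted and clone-named genes were passed over, and none of the 8 belongs to the pathway lists. Mpzl2 had means of 5.05 ± 0.18 in f/f and 6.80 ± 0.18 in d/d (SD, n = 3), a log2 difference of 1.75 beside 2.11 for Cers3. Upk3bl, a uroplakin-like gene, differed in that d/d 1, at 6.50, stood above d/d 2 and d/d 3, at 5.50 and 5.53. In Cers3 the low d/d array was d/d 3.

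**Figure D4:**
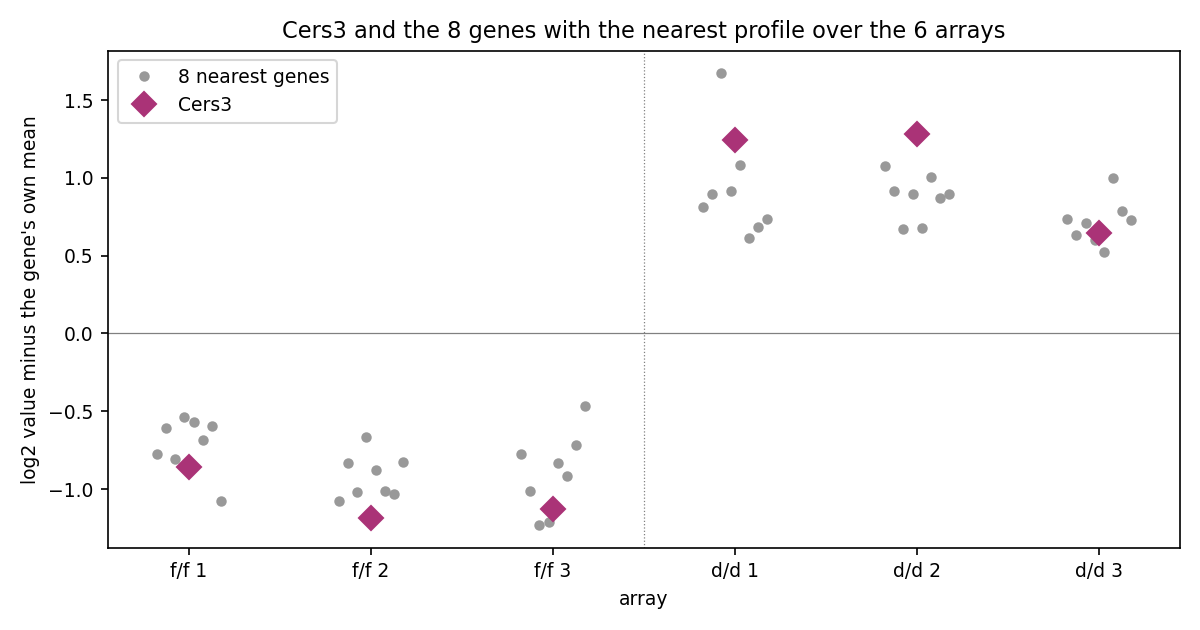
Log2 value minus the gene's own mean over the 6 arrays, for Cers3 (diamonds) and the 8 nearest genes (grey points), by array. All 9 genes lie below 0 in every f/f array and above 0 in every d/d array, and Cers3 has the largest value in d/d 2.

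The genes next to Cers3 along the chromosome did not pass the threshold. Of the 8 nearest protein-coding genes in RefSeq order, 4 on each side, 7 were measured and 0 were called. Lins1, the neighbour on one side, stood at 0.061 and Asb7 beyond it at 0.15. On the other side Adamts17 had no probe set with that symbol alone, Lysmd4 stood at 0.028 and Mef2a, a transcription factor of muscle, at -0.20. All 7 had overlapping genotypes. Of the 8 neighbours of Degs2, 7 were measured and 0 were called. Hhipl1, at -0.46, Eml1, at -0.44, and Wars, a tRNA synthetase, at -0.22, had every d/d array below every f/f array, and Yy1, a transcription factor, at 0.21, had every d/d array above. The other 3 overlapped and stood from -0.25 to -0.11. Among all genes the groups did not overlap for 16.5%. Hhipl1 lay above 2.69 in only 2 arrays, with means of 2.74 in f/f and 2.28 in d/d, so background limits its difference. Whether the region around Degs2 differs as a whole was not tested.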

How the data were processed

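Uterine RNA of 6 samples was hybridised to Affymetrix arrays, 1 array a sample. The deposited table holds 1 linear intensity per probe set and array, made by the authors with RMA per the submitters' processing notes, with version and settings not given in the sources used here. RMA corrects background, equalises array distributions and summarises probes, which compresses differences near background. Log2 was taken with no added constant, and 0 value columns were left out. The median linear intensity of an array lay between 6.34 and 6.59, near 2.69 as log2, and array number limits the precision.

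The d/d and f/f arrays entered a limma fit (version 3.58.1, R 4.3.3; lmFit and eBayes, 2-sided, no covariate, 4 residual degrees of freedom, Benjamini-Hochberg over 41420 probe sets or 16813 genes, threshold 0.05), and the steps were tested on simulated data. Symbols came from the platform annotation: 31562 probe sets had exactly 1, 830 several and 9028 none. A gene was read by its brightest such probe set. Members and lists were chosen with earlier results of these data known. Named were all members, listed genes past the threshold or among the 4 of smallest p in a list, Arid1a and the 8 genes nearest Cers3. Dimmer probe sets, Gm2a, Arsa, Spns2, Elovl4, marker genes, acylceramide genes below 2.69, and the neighbours of Cers3 and Degs2 were named after their values were seen. Promoter sequences are RefSeq's, build GRCm38.p6. Alternatives were a replicate block, other variance models, array weights, repeated normalization, filters, left-out arrays, another threshold and means of probe sets.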

Additional observations from a re-analysis of the deposited data

How the results depend on the processing

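Cers3 passed the threshold under each of 15 alternatives, with log2 differences from 2.00 to 2.32 over the 6 fits that left out 1 array; its direction there was fixed, as its groups do not overlap. Having 1 probe set, it has the same value as a mean of probe sets. A shared number was not read as pairing: the deviations from the group means of arrays numbered alike had correlations of 0.461, 0.0228 and 0.178, while f/f 2 and f/f 3 went better with d/d 3 (0.160) and d/d 2 (0.299). With the replicate block 574 probe sets passed (295 higher, 279 lower), as did 2 of the 19 enzyme probe sets, Cers3 and Degs2, and 3 of the 69 other pathway genes. Array weights gave 329 probe sets and 3 pathway genes, leaving out both arrays numbered 1 gave 657 and 4, and an adjusted p under 0.10 gave 462 and 4, the last by its looser threshold; otherwise the cause was not tested. With 1 array left out, probe sets past the threshold ranged from 37 to 971, enzyme probe sets from 1 to 2 and pathway genes from 0 to 8. Over all other alternatives for these results, counts stayed within 1.5 times the main count. Below 2.69 on the log2 scale, signal over background limits what Cers5, Sptlc1, Sptlc2 and Ugcg probe sets can show.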

Other observations

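Galc, the lysosomal enzyme that removes galactose from galactosylceramide, had the largest SD among arrays of 1 genotype of the 69 pathway genes, 1.39 in f/f. Its brightest probe set measured 4.80, 2.03 and 3.57 in f/f 1, 2 and 3 against 4.67, 4.55 and 4.78 in d/d 1, 2 and 3. The f/f arrays thus spanned a wide range and f/f 1 stood with the d/d arrays, so the difference of 1.21 ± 0.59 (SE; limma adjusted p = 0.484) did not pass despite being among the largest of the pathway. Its other 2 probe sets lay below 2.69 in all arrays and differed by -0.19 and -0.041. Galc was named after its values were seen.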
